A study of Mus musculus with 12 samples.

Results

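Ubiquitin ligases attach ubiquitin to proteins and deubiquitinases remove it, and both were followed here in blood neutrophils through 3 gene families named by their symbols. The members were the protein-coding genes whose symbol begins with Trim, Rnf or Usp followed by a digit. The deposited expression table held 130 of them among its 9374 genes: 36 Trim genes, 57 Rnf genes and 37 Usp genes. RefSeq lists 68, 83 and 56 protein-coding mouse genes of these name patterns, and the remaining ones were not analysed here.

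Ubiquitin is passed along a chain of activating (E1), conjugating (E2) and ligating (E3) enzymes, and the E3 enzyme chooses the protein that is marked. Most Trim proteins carry a RING domain, B-boxes and a coiled coil, and many act in antiviral and Toll-like receptor signalling. The Rnf symbol collects other RING finger proteins of varied function. Most, but not all, Usp genes encode cysteine proteases that cut ubiquitin, or ubiquitin-like proteins such as ISG15, from their targets. In innate immune cells these enzymes switch signalling complexes below Toll-like and RIG-I-like receptors on and off, and several are themselves interferon-stimulated genes.

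RNA was taken from neutrophils isolated from the blood of female mice, in 4 groups of 3 libraries. The KO-LPS and KO-Saline groups came from mice labelled KO, the Hmgb1ΔMye genotype of the series title, given LPS at 0.5 mg/kg or saline for 16 hours. The WT-LPS and WT-Saline groups came from WT mice given the same 2 treatments. LPS is the bacterial cell wall component sensed by Toll-like receptor 4, and HMGB1 is a nuclear protein that is released from damaged or activated cells. The sources used here name neither the Cre driver behind the myeloid deletion nor the ages of the mice. Whether the 3 libraries of each group stand for 3 different animals is not stated in the labels, and p-values then measure only the spread between these libraries, which may be technical.

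Each library held 399702 to 526757 reads over the genes of the table, and a median gene had 11.3 reads. In KO-Saline replicate 3, 19.2% of genes had no read, against 6.93% to 12.6% in the other libraries. Levels are given in CPM, reads scaled to library size, in which 1 read was worth 1.86 to 2.67 CPM depending on the library. Hmgb1, the targeted gene, had 6, 30 and 16 reads in KO-LPS, 14, 10 and 25 in KO-Saline, 14, 15 and 34 in WT-LPS and 8, 17 and 12 in WT-Saline. These reads showed no loss of Hmgb1 in the KO groups, which are therefore called KO-labelled, and a direction between genotypes goes by the labels alone. All 7 mature neutrophil markers looked for were measured. Of other cell types, 4 of 9 platelet genes, 5 of 10 monocyte and macrophage genes, 3 of 8 T and NK cell genes and 1 B cell gene were measured, and Pf4, Ppbp and Cd3e were not in the table.

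The members were expressed at low to moderate levels, with a median of 17.2 reads per library against 11.3 over all genes. In the Trim family the 3 genes with the highest mean log2 value were Trim13, an endoplasmic reticulum ligase, Trim30a, a mouse inhibitor of Toll-like receptor signalling, and Trim25, the ligase that acts on the viral RNA sensor RIG-I. Their mean levels over the 12 libraries were 335, 276 and 188 CPM. In the Rnf family they were Rnf213 at 569 CPM, Rnf167 at 423 CPM and Rnf149 at 338 CPM, and in the Usp family Usp34 at 240 CPM, Usp35 at 204 CPM and Usp38 at 300 CPM. Per kilobase of annotated exon, Rnf167 at 120 and Rnf149 at 119 CPM per kb did not stand apart from each other, and the very long Rnf213 was at 33.7 CPM per kb. Trim13 led its family at 203 CPM per kb, over a GENCODE exon length of 1650 bases that is shorter than the RefSeq gene. On this scale Trim25 ranked only 8 in its family at 32.6 CPM per kb, and Usp34 ranked 9 at 13 CPM per kb.

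Summed over each family, the level varied little between groups. The 36 Trim genes summed to 2599 ± 48.6 CPM in KO-LPS, 2452 ± 243 in KO-Saline, 2635 ± 412 in WT-LPS and 2426 ± 335 in WT-Saline (SD, n = 3 each). For the 57 Rnf genes the sums were 4504 ± 42.0 CPM in KO-LPS, 4396 ± 415 in KO-Saline, 5009 ± 211 in WT-LPS and 4305 ± 239 in WT-Saline. The 37 Usp genes gave 2186 ± 179, 2075 ± 24.6, 2336 ± 223 and 2283 ± 95.4 CPM in the same 4 groups. Between LPS and saline only the Rnf sums of WT libraries did not overlap, the lowest WT-LPS value being 4767 CPM and the highest WT-Saline value 4558 CPM. Between genotypes the Rnf sums after LPS and the Usp sums after saline did not overlap either, and both were lower in KO-labelled libraries. Most of the Rnf difference between WT-LPS and WT-Saline came from Rnf213 alone. With the Rnf213 level taken off each library's sum, the Rnf sums overlapped in both of these comparisons.

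**Figure D1:**
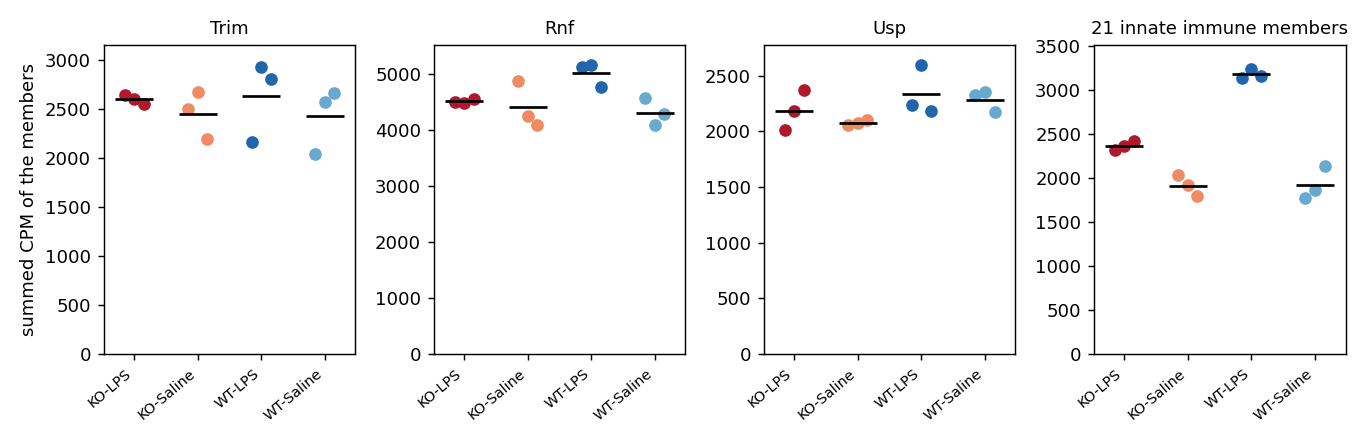
Summed level (CPM, axis from 0) of the Trim, Rnf and Usp members and of 21 members with a known innate immune role, 1 point per library and a line at each group mean. The innate immune sum lay between 3141 and 3246 CPM in WT-LPS, above the 2316 to 2418 CPM of KO-LPS and above both saline groups. Without Rnf213 and Trim30a, the sums of WT-LPS (1446 to 1921 CPM) and KO-LPS (1463 to 1555 CPM) overlapped.

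The comparison of LPS with saline in WT asks how endotoxin given to the animal changes the neutrophils. Of the 130 members, 15 changed (11.5%), against 11.7% of all genes, so the 3 families together were called about as often as any other genes. Of these, 10 rose (background 6.72%) and 5 fell (background 4.96%), and the median log2 fold change of the members was 0.01, against 0.06 over all genes. By family, 2 Trim genes rose and 2 fell, 4 Rnf genes rose and 2 fell, and 4 Usp genes rose and 1 fell. A change of at least 2-fold in either direction was seen in 49 members (37.7%, against 35.5% of all genes). All calls are from limma with Benjamini-Hochberg adjustment over the 9374 genes at an adjusted p under 0.05. Whichever library was left out, Usp38, Usp40, Rnf213, Usp44 and Trim14 were still called in WT. The other 10 were not called without at least 1 WT library: Rnf19b without WT-LPS replicate 1, Rnf149 without WT-LPS replicate 3, and Trim30a, Trim34b, Trim45, Rnf10, Rnf25, Rnf144a, Usp18 and Usp39 with each of 2 or more libraries left out in turn.

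The groups of 3 libraries did not overlap for 26 of 57 Rnf genes (45.6%), 8 of 36 Trim genes (22.2%) and 12 of 37 Usp genes (32.4%), against 30.8% of all genes. Among called members the median was 63.8 reads per library, and among the others 16 reads. Of the 76 members at or above the median reads of all genes, 12 were called (15.8%), against 19.7% of all genes at that depth.

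**Figure D2:**
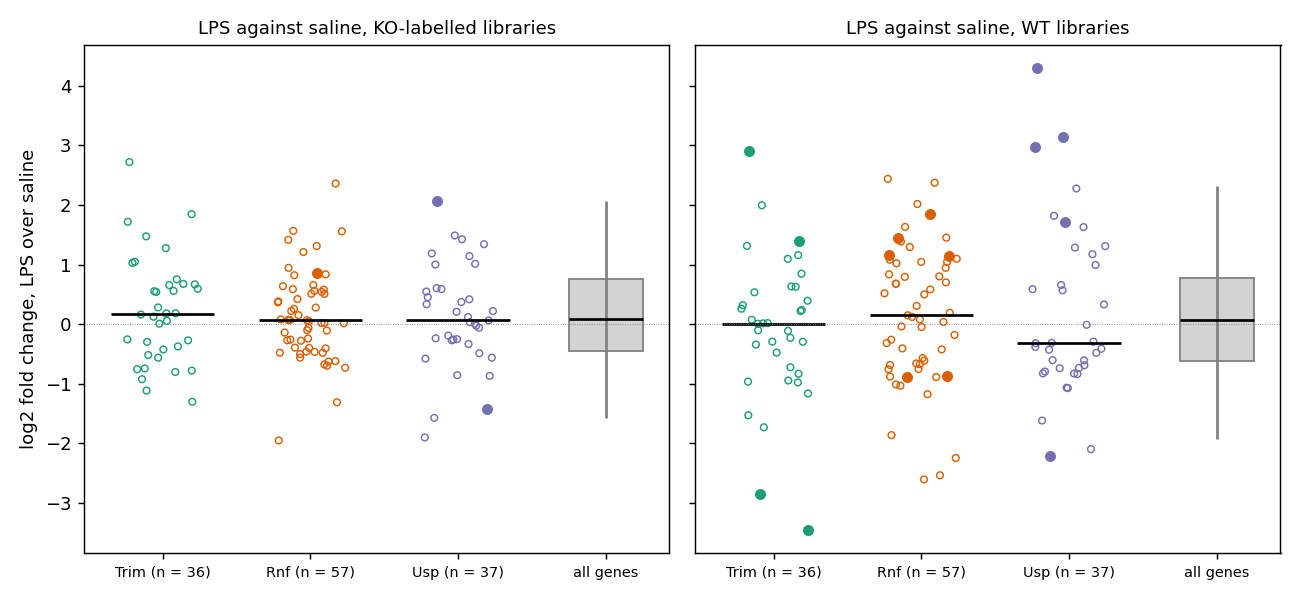
Log2 fold change of LPS over saline for each Trim, Rnf and Usp member, in KO-labelled libraries (left) and WT libraries (right), with filled points for called members, lines at family medians, and for all genes a box of the middle 50% with whiskers at the 5th and 95th percentiles. The family medians lay between −0.32 and 0.17, within the box of all genes.

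Among the Trim ligases, Trim14 and Trim30a rose in WT and Trim34b and Trim45 fell. Trim14 lacks a RING domain and serves as an adaptor in mitochondrial antiviral and cGAS signalling. It had 5, 20 and 19 reads in KO-LPS, 5, 3 and 2 in KO-Saline, 37, 46 and 54 in WT-LPS and 3, 9 and 6 in WT-Saline. Every WT-LPS library was above every other library, and KO-LPS replicate 1 was level with the highest KO-Saline library. The log2 fold change was 2.91 ± 0.64 (SE) in WT (adjusted p = 0.00253), with mean levels of 95 ± 6.55 CPM in WT-LPS and 12.5 ± 5.99 CPM in WT-Saline (SD, n = 3). In KO-labelled libraries it was 1.85 ± 0.64 (adjusted p = 0.119). Trim14 lies on the minus strand of chr4:46493781-46536141 (mm10), and shares 1356 exon bases with Nans on the other strand. A non-coding gene that also overlaps it there, Gm16731, had more reads (183 per library, against 17.4) and rose as well, by 1.80 ± 0.28 in WT (adjusted p = 4.84e-05) and 1.38 ± 0.28 in KO-labelled libraries (adjusted p = 0.00478).

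Trim30a is known in mouse macrophages to dampen NF-κB signalling below Toll-like receptors. It had 107, 93 and 147 reads in KO-LPS, 49, 98 and 79 in KO-Saline, 95, 187 and 446 in WT-LPS and 43, 86 and 112 in WT-Saline. The rise in WT (1.40 ± 0.34, adjusted p = 0.00591) leaned on WT-LPS replicate 3. The WT groups did not overlap in CPM, though WT-LPS replicate 1 was close to the highest WT-Saline library. Without WT-LPS replicate 3 the log2 fold change was 0.91 and was not called. The level averaged 483 ± 311 CPM in WT-LPS and 165 ± 54.3 CPM in WT-Saline (SD, n = 3), and the KO-labelled difference was 0.65 ± 0.34 (adjusted p = 0.33).

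Trim30a belongs to a group of neighbouring Trim genes on chromosome 7, paralogues among which the counting may have split reads, so single values there are uncertain. The short stretches before the annotated starts of 4 of these genes are shown because each holds the core of the interferon-stimulated response element, GAAA repeated after any 2 bases, or its reverse complement, in capitals. They are read 5′ to 3′ on the gene's strand (minus for all 4), up to the annotated start, from RefSeq's GRCm38.p6, at chr7:104465194-104465269, chr7:104507850-104507930, chr7:104353350-104353418 and chr7:104288107-104288195.
Trim30a: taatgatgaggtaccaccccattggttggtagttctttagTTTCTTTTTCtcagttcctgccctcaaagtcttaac
Trim30d: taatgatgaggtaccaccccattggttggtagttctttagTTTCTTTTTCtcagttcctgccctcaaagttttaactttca
Trim12c: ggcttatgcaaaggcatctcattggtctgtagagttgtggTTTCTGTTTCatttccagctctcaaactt
Trim5: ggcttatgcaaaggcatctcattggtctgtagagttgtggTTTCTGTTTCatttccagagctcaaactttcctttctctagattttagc
Laid side by side without gaps, Trim30a and Trim30d shared 75 of 76 bases, Trim12c and Trim5 shared 67 of 69, and Trim30a and Trim12c shared 33 of 69.

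The nearly identical Trim30a and Trim30d stretches stood before genes with unlike values. Trim30d had 69, 49 and 44 reads in KO-LPS, 55, 63 and 39 in KO-Saline, 77, 78 and 55 in WT-LPS and 45, 80 and 87 in WT-Saline, with a WT log2 fold change of 0.01 ± 0.32 (adjusted p = 0.987). Trim12c and Trim5, mouse counterparts of the retroviral restriction factor TRIM5, had WT log2 fold changes of −0.48 ± 0.32 (adjusted p = 0.398) and 0.07 ± 0.43 (adjusted p = 0.942). Searched over 250 bases before each start on both strands, the core was found for 7 of the 97 members with a promoter entry (7.22%). The share was 3.46% (936 of 27025) over all genes with a promoter entry, whether measured here or not. Of the 7 members, 4 were the chromosome 7 genes shown above, which form 2 nearly identical pairs. Their matches are therefore not independent, and the higher share cannot be read as an enrichment of the 3 families. The other 3 members with the core were Rnf121, Rnf146 and Trim26. Of the 10 members that rose in WT, Trim14, Usp18, Usp44 and Usp39 had no entry. The core stood before 1 of the other 6 and 0 of the 5 that fell, and the core of the STAT-binding GAS element, TTCNNNGAA, before 9 of 97 members (9.28%), against 8.13% of genes. Matches of the 2 motifs may overlap, and no match says only that these letters are not in that window.

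Trim34b, a neighbour of Trim30a, fell in WT. It had 3, 5 and 18 reads in KO-LPS, 14, 15 and 16 in KO-Saline, 0, 7 and 2 in WT-LPS and 15, 19 and 11 in WT-Saline. The WT groups did not overlap and the log2 fold change was −2.86 ± 0.83 (adjusted p = 0.0217). Its paralogue Trim34a ran the other way just outside the threshold, with 16, 31 and 26 reads in KO-LPS, 18, 23 and 10 in KO-Saline, 27, 47 and 31 in WT-LPS and 12, 13 and 15 in WT-Saline (WT 1.31 ± 0.44, adjusted p = 0.051). The difference between the 2 genes was not tested.

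**Figure D3:**
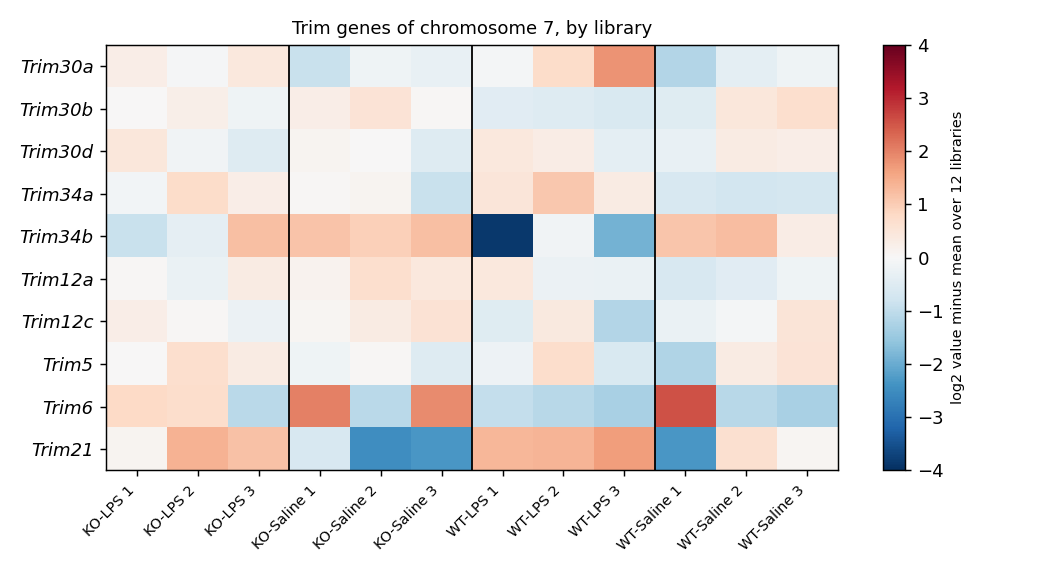
Deposited log2 values of 10 Trim genes on chromosome 7 in the 12 libraries (columns, by group), as the difference from each gene's mean over all libraries. Trim30a was highest in WT-LPS replicate 3, and Trim34b had its lowest group mean in WT-LPS. Trim30b, Trim30d, Trim12a, Trim12c and Trim5 showed no call in any comparison.

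Trim45, a ligase known to repress MAP kinase signalling, also fell in WT. It had 0, 2 and 0 reads in KO-LPS, 0, 2 and 1 in KO-Saline, 0 in each WT-LPS library and 4, 5 and 6 in WT-Saline (limma adjusted p = 0.0271). Against a floor of 3 reads per library, which a count of 0 allows, Trim45 was at least 1.65-fold lower in WT-LPS. The other 32 Trim genes were not called. Among them Trim21, the cytosolic antibody receptor, had 2, 6 and 6 reads in KO-LPS, 1, 0 and 0 in KO-Saline, 6, 7 and 10 in WT-LPS and 0, 4 and 3 in WT-Saline, with a WT log2 fold change of 2.0 ± 1.03 (adjusted p = 0.237). Neither LPS group of Trim21 overlapped its saline group, at counts of 10 reads or fewer. Trim25 was nearly level, with group means of 196 ± 74.1 CPM in KO-LPS, 187 ± 20.3 in KO-Saline, 176 ± 25.9 in WT-LPS and 193 ± 53.0 in WT-Saline (SD, n = 3), and Trim13 had a WT log2 fold change of −0.83 ± 0.32 (adjusted p = 0.0927).

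Among the Rnf genes the clearest rise was that of Rnf213, a giant ligase with an AAA+ ATPase core that is induced by interferon and can ubiquitylate the LPS of bacteria in the cytosol. It had 178, 273 and 272 reads in KO-LPS, 140, 150 and 109 in KO-Saline, 517, 441 and 475 in WT-LPS and 166, 161 and 195 in WT-Saline. All LPS libraries of a genotype were above its saline libraries in CPM, and all WT-LPS libraries were above all KO-LPS libraries. The log2 fold change was 1.44 ± 0.22 in WT (adjusted p = 4.38e-05) and 0.85 ± 0.22 in KO-labelled libraries (adjusted p = 0.0276). Its mean levels were 577 ± 99.5 CPM in KO-LPS, 319 ± 51.4 in KO-Saline, 1013 ± 186 in WT-LPS and 368 ± 31.1 in WT-Saline (SD, n = 3).

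Rnf213 lies at chr11:119393100-119487418 (mm10, plus strand), and 1476 bases of its exons are shared with A930037H05Rik, a non-coding gene on the other strand. A930037H05Rik averaged 670 reads per library, more than the 256 of Rnf213, and moved alike, with a log2 fold change of 1.63 ± 0.21 in WT (adjusted p = 4.07e-06) and 0.73 ± 0.21 in KO-labelled libraries (adjusted p = 0.0445). Whether the counting used the strand is not stated, so reads of such pairs cannot be assigned to one of them. In all, 43 members share exon bases with a gene on the other strand. Of 26 members with a measured gene opposite, 17 had fewer reads than that gene, and 166 of 228 non-coding RNAs opposite a measured protein-coding gene had more reads than it. Of the 87 members without such overlap, 10 changed in WT (11.5%), against 11.0% of genes without it.

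The other Rnf genes that rose were Rnf19b, Rnf10 and Rnf25. Rnf19b, a RING-between-RING ligase known from the killing activity of natural killer cells, had 51, 66 and 112 reads in KO-LPS, 42, 51 and 62 in KO-Saline, 146, 100 and 110 in WT-LPS and 41, 53 and 63 in WT-Saline. Its WT groups were far apart (1.16 ± 0.29, adjusted p = 0.00754), while the KO-labelled difference was 0.51 ± 0.29 (adjusted p = 0.394). Rnf10, which ubiquitylates proteins of the small ribosomal subunit, had 42, 84 and 65 reads in KO-LPS, 58, 48 and 27 in KO-Saline, 87, 104 and 111 in WT-LPS and 31, 59 and 49 in WT-Saline (WT 1.14 ± 0.32, adjusted p = 0.0183). Both genes are free of exon overlap on the other strand. Rnf25, a ligase of the response to stalled ribosomes, had a WT log2 fold change of 1.85 ± 0.59 (adjusted p = 0.0388), with 52.7 ± 20.5 CPM in WT-LPS and 13.3 ± 2.40 CPM in WT-Saline (SD, n = 3).

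Rnf149 and Rnf144a fell. Rnf149, a membrane-anchored ligase with a protease-associated domain, had 128, 77 and 120 reads in KO-LPS, 155, 209 and 153 in KO-Saline, 109, 125 and 104 in WT-LPS and 186, 211 and 226 in WT-Saline. Its groups did not overlap in CPM in either genotype, and the log2 fold change was −0.89 ± 0.24 in WT (adjusted p = 0.0131) and −0.68 ± 0.24 in KO-labelled libraries (adjusted p = 0.127). Rnf144a, a RING-between-RING ligase known to act on the DNA repair kinase DNA-PKcs, had a WT log2 fold change of −0.86 ± 0.27 (adjusted p = 0.0325), with 174 ± 22.1 CPM in WT-LPS and 325 ± 91.9 CPM in WT-Saline. The abundant Rnf167, a lysosomal ligase, was level at −0.05 ± 0.27 (adjusted p = 0.938).

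Among the Usp genes, Usp38 had the smallest p of all members. It is known to curb antiviral signalling by steering the kinase TBK1 to degradation. Usp38 had 40, 258 and 276 reads in KO-LPS, 34, 35 and 32 in KO-Saline, 223, 387 and 243 in WT-LPS and 34, 30 and 40 in WT-Saline. In 5 of 6 LPS libraries the reads were several times those of any saline library, and KO-LPS replicate 1 stayed close to the saline libraries. The log2 fold change was 2.97 ± 0.41 in WT (adjusted p = 1.7e-05) and 2.07 ± 0.41 in KO-labelled libraries (adjusted p = 0.00478), where it was 2.91 without KO-LPS replicate 1. The gene lies on the minus strand of chr8:80980733-81014928 (mm10), and 1174 bases of its exons are shared with Gm9725 on the other strand.

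Usp40, a less studied deubiquitinase, fell in both genotypes. It had 78, 33 and 40 reads in KO-LPS, 129, 135 and 118 in KO-Saline, 22, 33 and 55 in WT-LPS and 144, 190 and 147 in WT-Saline. No LPS library reached the lowest saline library. The log2 fold change was −2.21 ± 0.32 in WT (adjusted p = 2.65e-05) and −1.42 ± 0.32 in KO-labelled libraries (adjusted p = 0.011). Usp40 shares 62 exon bases with Dgkd on the other strand, which had fewer reads (43.3 per library, against 93.7) and a WT log2 fold change of −0.63 ± 0.35 (adjusted p = 0.276).

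Usp44, known from the spindle checkpoint and from removal of ubiquitin from histone H2B, rose in WT without any exon overlap. It had 5, 19 and 24 reads in KO-LPS, 7, 5 and 5 in KO-Saline, 21, 24 and 24 in WT-LPS and 0, 6 and 0 in WT-Saline. The WT difference was 4.31 ± 0.88 on the log2 scale (adjusted p = 0.00122), and the read sums differed 11.4-fold (95% interval of counting error 4.98 to 32.2). In KO-labelled libraries the log2 fold change was 1.19 ± 0.88 (adjusted p = 0.533). Usp44 was at 5 to 7 reads in KO-Saline, above 2 of the 3 WT-Saline libraries, which had none. Of the 5 Usp genes called in WT, 2 are free of exon overlap on the other strand. Usp44 is among these, so Usp18 and Usp39, below, are not both free of it.

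Usp18 removes ISG15 from proteins and blocks the type I interferon receptor. It had 15, 36 and 56 reads in KO-LPS, 6, 11 and 22 in KO-Saline, 40, 64 and 53 in WT-LPS and 23, 14 and 11 in WT-Saline. The WT groups did not overlap (1.71 ± 0.49, adjusted p = 0.0201), and KO-LPS overlapped KO-Saline through its replicate 1 (1.43 ± 0.49, adjusted p = 0.114). Usp39, a splicing factor with an inactive protease domain, had 1, 0 and 0 reads in KO-LPS, 1, 4 and 1 in KO-Saline, 6, 2 and 5 in WT-LPS and 0 in each WT-Saline library. It was called higher in WT-LPS (limma adjusted p = 0.0425), where it was at least 1.45-fold higher than the floor of 3 reads per library in WT-Saline. Usp34, a large deubiquitinase, and Usp35 had WT log2 fold changes of −0.61 ± 0.24 (adjusted p = 0.102) and −0.83 ± 0.30 (adjusted p = 0.0685).

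**Figure D4:**
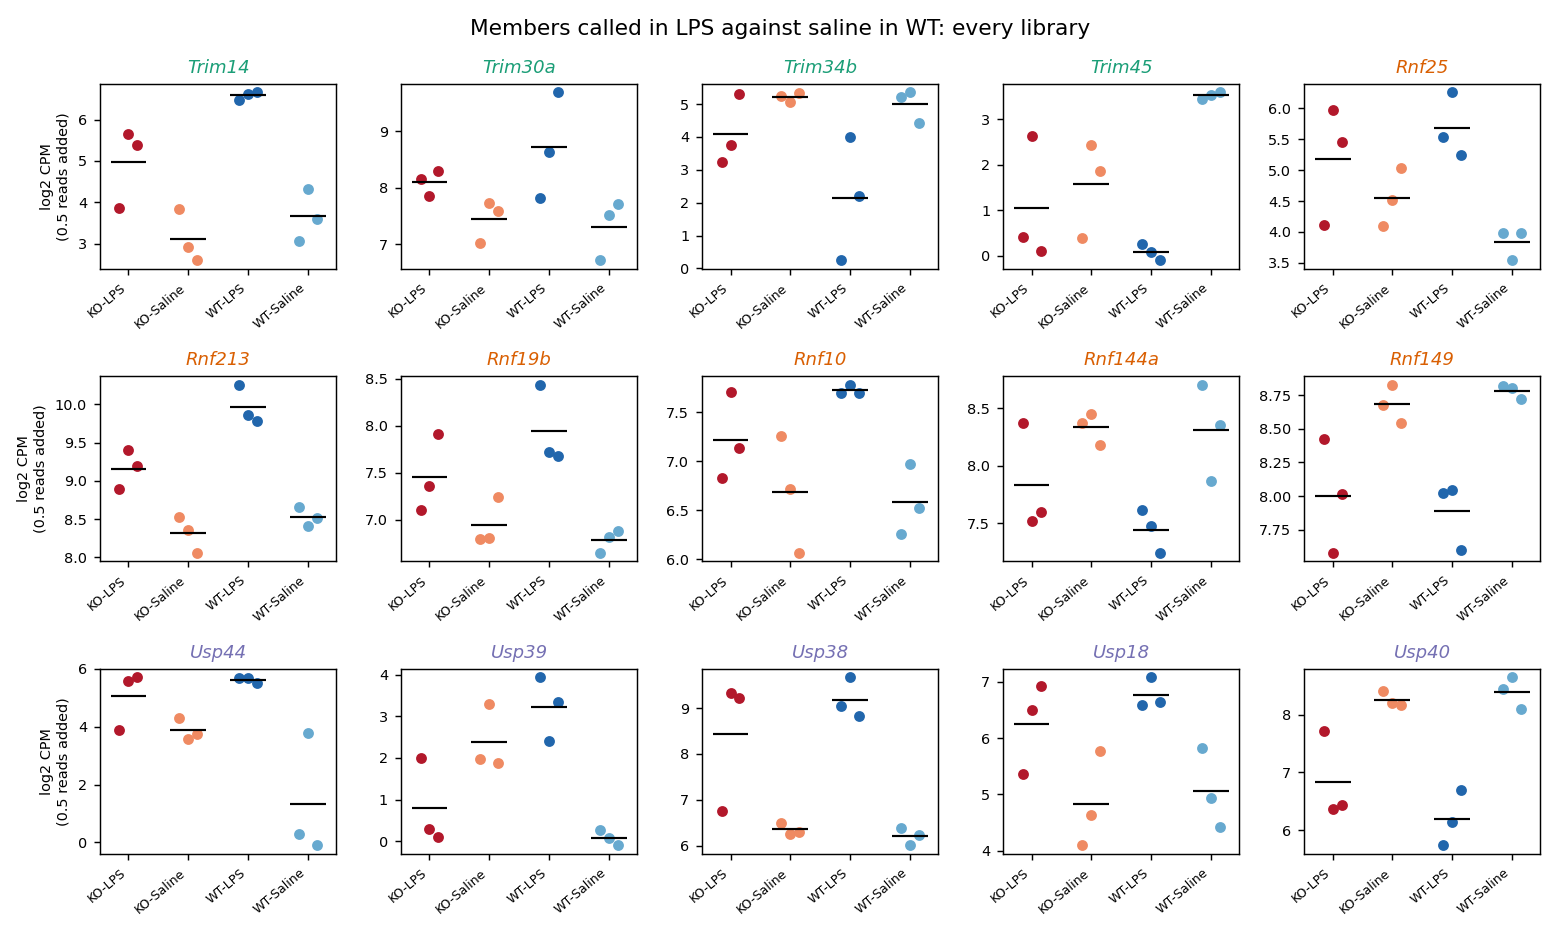
Log2 CPM (0.5 reads added) of the 15 members called in WT, 1 point per library and a line at each group mean, with the groups in the order KO-LPS, KO-Saline, WT-LPS and WT-Saline and a separate vertical axis for each gene. For Trim14, Usp38, Usp18 and Usp44 the lowest of the 3 KO-LPS points is replicate 1, near the saline groups.

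The same comparison in KO-labelled mice gave 3 called members (2.31%, against 3.35% of all genes): Usp38 and Rnf213 rose (background 1.99%) and Usp40 fell (background 1.35%), and no Trim gene was called. The KO-LPS and KO-Saline libraries did not overlap for 19 members (14.6%, against 17.6% of all genes). All 3 called members have exon overlap on the other strand, and of the 87 members without it none was called by limma (background 3.27%), 5 of them having an unadjusted p under 0.05. Of the 15 members called in WT, 14 had the same sign in KO-labelled libraries, the exception being Usp39, and all 15 had a smaller log2 fold change in size. Over all 1095 genes called in WT, 1052 had the same sign and 1040 a smaller size, so the members were not set apart by this. The WT values were the ones used to choose these genes.

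KO-LPS replicate 1 differed from the other 2 KO-LPS libraries in several of these genes. All 3 calls were lost without KO-LPS replicate 2 and likewise without KO-LPS replicate 3. Without replicate 1, 9 members were called (6.92%, against 11.5% of all genes): Usp38, Usp40, Rnf213, Usp32, Rnf149, Usp18, Trim14, Trim9 and Rnf144a. Of these, Trim14 then stood at 2.40 ± 0.67 (adjusted p = 0.0141) and Usp18 at 1.87 ± 0.49 (adjusted p = 0.00828). Usp32, a deubiquitinase of endosomal trafficking, was at −1.18 ± 0.29 (adjusted p = 0.00355), and Trim9, a ligase best known from neurons, at 1.37 ± 0.42 (adjusted p = 0.0283).

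Levels of marker genes differed between LPS and saline libraries too. The sum of the 7 mature neutrophil genes was 18245 to 20779 CPM in KO-LPS, 17672 to 18059 in KO-Saline, 16467 to 18993 in WT-LPS and 12782 to 17199 in WT-Saline, so that the saline groups of the genotypes did not overlap. Of these 7 genes, 5 rose in WT and Csf3r, the G-CSF receptor, fell (−1.62 ± 0.30, limma adjusted p = 0.000471); in KO-labelled libraries 1 rose and 1 fell. The sum of 7 measured immature granule genes, such as Ltf, Camp and Ngp, was 1422 to 13249 CPM in KO-LPS, 788 to 1535 in KO-Saline, 9410 to 14108 in WT-LPS and 395 to 631 in WT-Saline. Of these 7 genes, 6 rose in WT and 4 in KO-labelled libraries, and Elane and Mpo were not in the table. The platelet sum over 4 genes was 244 to 523 CPM in KO-LPS, 692 to 895 in KO-Saline, 180 to 282 in WT-LPS and 537 to 805 in WT-Saline. Sums of the 5 monocyte and macrophage genes were 349 to 550 CPM in KO-LPS, 391 to 438 in KO-Saline, 506 to 654 in WT-LPS and 353 to 460 in WT-Saline. Within that list Ly6c2 rose in WT (3.67 ± 0.45, adjusted p = 2.96e-06), while Apoe (−3.36 ± 0.73, adjusted p = 0.00232) and Csf1r (−0.89 ± 0.27, adjusted p = 0.0282) fell, and in KO-labelled libraries Apoe fell (−2.60 ± 0.73, adjusted p = 0.0447). Sums of the 3 T and NK cell genes were 69.1 to 216 CPM over all libraries, and Tcf7 among them fell in WT (−3.17 ± 0.92, adjusted p = 0.022). Cd79a, the B cell gene measured, had 34.7 to 104 CPM in KO-LPS, 7.30 to 28.9 in KO-Saline, 101 to 134 in WT-LPS and 9.68 to 29.6 in WT-Saline. The part of these shifts in the members' values was not tested, and fewer cells of a type cannot be told apart from less RNA per cell.

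**Figure D5:**
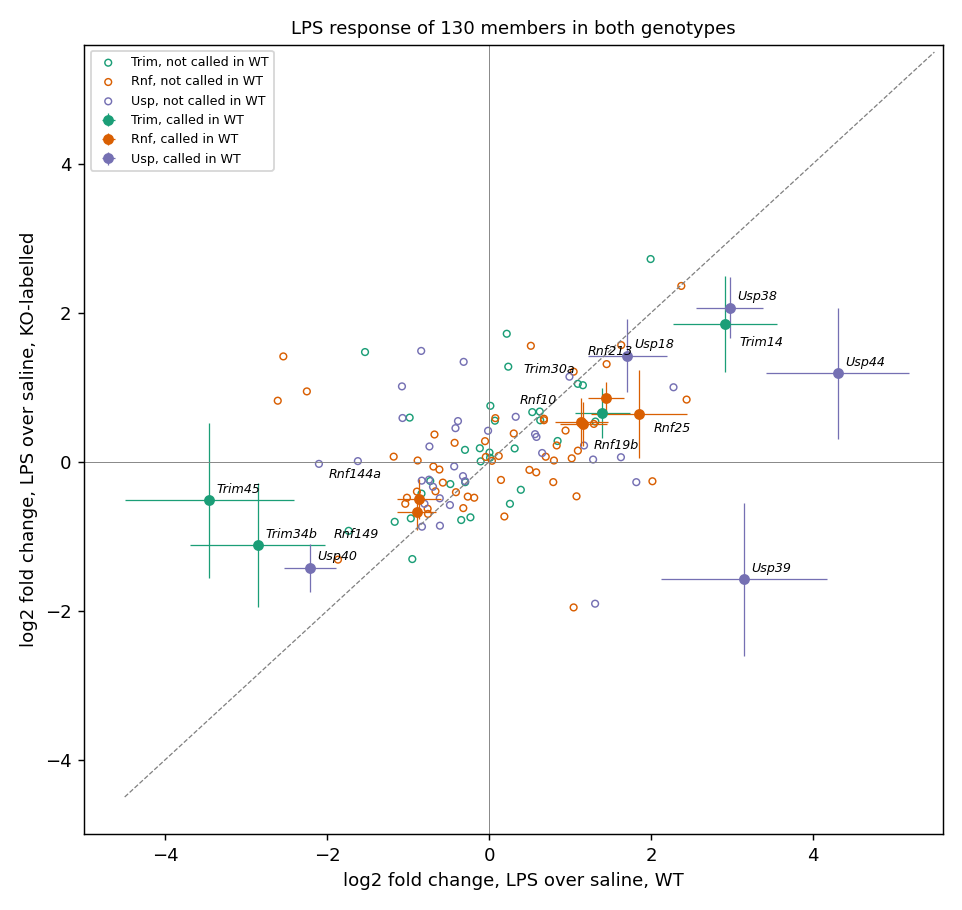
Log2 fold change of LPS over saline in KO-labelled libraries (vertical) against WT libraries (horizontal) for 130 members, with the 15 members called in WT filled and named, bars of 1 SE, and a dashed line of equal change. The filled points lie nearer to 0 on the vertical than on the horizontal axis, and Usp39 alone of them has opposite signs.

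Of 21 members with a known innate immune role, 4 rose in WT (Trim14, Trim30a, Rnf213 and Usp18; 19.0%, against 6.72% of all genes) and none fell, with a median log2 fold change of 0.57, against 0.06 over all genes. In KO-labelled libraries 1 rose (Rnf213; 4.76%, against 1.99% of all genes), with a median of 0.37, against 0.09 over all genes. The list was drawn up with earlier results of these data known. The 19.0% called in WT was near the 19.7% called, in either direction, of all genes at or above the median reads. These 21 members had a median of 29.25 reads per library, against 11.3 over all genes. Their summed level was 2367 ± 51.5 CPM in KO-LPS, 1916 ± 118 in KO-Saline, 3181 ± 56.4 in WT-LPS and 1926 ± 186 in WT-Saline (SD, n = 3). Without Rnf213 and Trim30a the sums were 1513 ± 46.5, 1418 ± 104, 1686 ± 238 and 1393 ± 152 CPM in the same 4 groups, so most of the LPS difference in the sum came from these 2 genes.

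The remaining members of that list were not called. Rnf31, the catalytic subunit of the linear ubiquitin chain ligase LUBAC, had WT and KO-labelled log2 fold changes of 0.68 ± 0.32 and 0.56 ± 0.32. Trim56, a ligase of the STING and TLR3 pathways, had 0.53 ± 0.51 and 0.67 ± 0.51, and Usp25, which trims chains on TRAF proteins, 0.57 ± 0.36 and 0.37 ± 0.36. Usp4 and Usp15, both known to act on signalling and splicing proteins, were at 0.59 ± 0.41 and 0.66 ± 0.64 in WT, and Usp21, a deubiquitinase of RIG-I, at −0.43 ± 0.48. Rnf114 was at 0.15 ± 0.25, Trim26 at 0.63 ± 0.71 and Trim12a at 0.39 ± 0.36. Rnf125 and Rnf135, ligases that restrain and activate RIG-I, lay on the lower side at −1.87 ± 0.69 (adjusted p = 0.0795) and −2.25 ± 1.05 (adjusted p = 0.182) in WT, the second on 9 reads or fewer per group.

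Elsewhere in the ubiquitin system, shares called are set beside the 11.7% of all genes called in WT and the 3.35% called in KO-labelled libraries. Of 35 measured E1 and E2 enzymes, 2 rose in WT and 3 fell (14.3%): Ube2l6 (at least 8.38-fold higher, against a floor of 3 reads per library, since it had 53.6 ± 6.28 CPM in WT-LPS and no read in WT-Saline; adjusted p = 0.000556) and Uba7 (1.30 ± 0.33, adjusted p = 0.00778), the E2 and E1 enzymes of ISG15, rose, and Ube2n (−1.79 ± 0.36, adjusted p = 0.001), the E2 enzyme of lysine 63 chains, Ube2h (−1.51 ± 0.37, adjusted p = 0.00667) and Atg7 fell. In KO-labelled libraries Uba3 rose and Ube2h and Atg7 fell (8.57%). Of 8 ubiquitin and ISG15 genes, Isg15 (2.42 ± 0.50, adjusted p = 0.00143) and Herc6 (2.69 ± 0.85, adjusted p = 0.037), the ISG15 ligase of mice, rose in WT (25%) and none were called in KO-labelled libraries.

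Of 62 other ubiquitin ligases, the partners Parp9 (1.59 ± 0.22, adjusted p = 1.86e-05) and Dtx3l (1.44 ± 0.35) rose in WT, and Traf6 (−2.79 ± 0.61, adjusted p = 0.00243), the ligase below Toll-like receptors, Wwp1 (−2.11 ± 0.35) and Skp2 (−1.72 ± 0.50) fell (8.06% called). Wwp1 shares exon bases with Gm12353 on the other strand, and the deubiquitinase Zranb1, below, with 1500002F19Rik. Parp9 and Dtx3l overlap on opposite strands, so their reads cannot be assigned to one of them. Parp9 was the only one of them called in KO-labelled libraries (0.99 ± 0.22, adjusted p = 0.011; 1.61%). Of 29 other deubiquitinases, Zranb1 rose in WT (1.05 ± 0.28, adjusted p = 0.0107; 3.45%) and none were called in KO-labelled libraries. None of the 38 proteasome subunits was called in either genotype by limma, at medians of 0.66 in WT and 0.42 in KO-labelled libraries, and their sum was 811 to 1018 CPM in KO-LPS, 780 to 848 in KO-Saline, 964 to 1022 in WT-LPS and 762 to 844 in WT-Saline.

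Between genotypes no member was called by limma. In saline mice, 0 of 130 members were called, KO-labelled against WT (background 0.0107%), and 7 had an unadjusted p under 0.05 (5.38%, against 6.86% of all genes). The libraries of the 2 genotypes did not overlap for 19 members (14.6%, against 13.0%). The 3 smallest p-values belonged to Usp44 (2.55 ± 0.88, adjusted p = 0.522), Trim12a (0.83 ± 0.36, adjusted p = 0.666) and Usp48 (−1.72 ± 0.74, adjusted p = 0.666). Trim12a had 97.0 ± 18.1 CPM in KO-Saline and 54.1 ± 8.73 CPM in WT-Saline, and Usp48, a deubiquitinase of histone H2A, 11.8 ± 9.67 and 33.1 ± 4.85 CPM (SD, n = 3 each).

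In LPS-treated mice, 0 members were called (background 0.0%), and 8 had an unadjusted p under 0.05 (6.15%, against 5.02%). For 11 members (8.46%, against 10.1%) the libraries did not overlap. Rnf213 had the smallest p, at −0.81 ± 0.22 (adjusted p = 0.53), and its KO-LPS and WT-LPS libraries did not overlap. Next were Rnf216, a ligase that limits Toll-like receptor signalling, and Trim14 (−1.61 ± 0.64, adjusted p = 0.949). Rnf216 had 16, 34 and 38 reads in KO-LPS, 31, 31 and 19 in KO-Saline, 6, 12 and 19 in WT-LPS and 28, 15 and 40 in WT-Saline, with a difference of 1.46 ± 0.47 in LPS (adjusted p = 0.845). WT-LPS held the 2 lowest values of Rnf216, and its highest was above the lowest WT-Saline value in CPM.

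Averaged over both treatments, 0 members were called (background 0.0107%), and 7 had an unadjusted p under 0.05 (5.65% of all genes did). The smallest p-values were those of Rnf213 (−0.51 ± 0.16, adjusted p = 0.721), Rnf216 (0.84 ± 0.33, adjusted p = 0.827) and Trim13 (0.57 ± 0.23, adjusted p = 0.827). The interaction, the KO-labelled response to LPS minus the WT response, also gave 0 calls (background 0.0%) and 7 unadjusted p-values under 0.05, against 5.97% of all genes. Its 3 smallest p-values were those of Usp39 (−4.72 ± 1.45, adjusted p = 0.676), Usp44 (−3.12 ± 1.25, adjusted p = 0.792) and Rnf138 (3.96 ± 1.65, adjusted p = 0.794). Usp39 and Rnf138, a ligase of DNA end repair, rest on few reads: Rnf138 had 14, 2 and 2 in KO-LPS, 6, 1 and 0 in KO-Saline, 0, 4 and 0 in WT-LPS and 9, 3 and 6 in WT-Saline.

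For the members that led the LPS comparison, the interval of the interaction bounds how unlike the genotypes may be. For Usp38 the 95% interval was −2.10 to 0.29 around −0.90, for Usp40 −0.14 to 1.73 around 0.79, and for Rnf213 −1.23 to 0.04 around −0.59. Trim14 gave −2.93 to 0.79 and Usp18 −1.70 to 1.14. Each of these intervals includes 0 and also includes differences of more than 2-fold. Usp44, which was also called in WT under every alternative, is not among them. Its interaction was −3.12 with an unadjusted limma p under 0.05, so its 95% interval does not include 0. After adjustment Usp44 was not called (limma adjusted p = 0.792). At this depth and with 3 libraries a group, no difference of the LPS response between genotypes was called for these members or for Usp44.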

How the data were processed

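The deposited table held 1 value per gene for 12 libraries of neutrophil RNA made with a kit for total RNA with mouse probes, per the labels' protocols. The deposited values are log2 CPM (scaled read counts), and the genome build was mm10 per the submitters' processing notes; the aligner, counter, strand setting and filters were not given in the sources used here. Adding 0.5 reads and a scaled library size reproduced every value from a whole number of reads, within 0.0001 reads for 100% of values, so reads and CPM were recovered from it. Genes were matched by their deposited ID, and coordinates and exons are GENCODE's for mm10.

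All 12 libraries were fitted together in limma 3.58.1 (R 4.3.3) with group means, a mean-variance trend, two-sided tests and Benjamini-Hochberg adjustment over 9374 genes, called at an adjusted p under 0.05. Errors of fold changes are standard errors; log2 fold changes include the 0.5 added reads, and those of low genes depend on it. Floors and intervals of read ratios cover counting error only; intervals of the interaction are limma's 95% intervals over the spread between libraries. Scripts were tested on simulated data.

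Members and lists were chosen with earlier results of these data known. Named were called members, the 3 of highest mean value per family, 21 with a known innate immune role, the 3 of smallest p where none was called, and called genes of pathway lists. Libraries of the same replicate number showed no shared deviation from their group means (18 pairs, correlations −0.13 to 0.06). This cannot show that the design had no pairing. Alternatives were other trends, filters, pseudocounts, scalings, blocks and leaving out each library.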

Additional observations from a re-analysis of the deposited data

How the results depend on the processing

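Under every alternative run, 5 of the 15 members called in WT were still called (Usp38, Usp40, Rnf213, Usp44 and Trim14), and none of the 3 called in KO-labelled libraries was. Leaving out each library in turn gave 1 to 7 called Trim genes, 2 to 8 Rnf genes and 3 to 7 Usp genes in WT, and 0 to 2, 0 to 3 and 0 to 4 in KO-labelled libraries. The Trim count fell to 1 without WT-LPS replicate 3 and to 2 without WT-LPS replicate 1, WT-Saline replicate 1 or WT-Saline replicate 2, and was 7 without KO-LPS replicate 1. The Rnf count fell to 2 without WT-LPS replicate 1 or 3 and to 3 without WT-LPS replicate 2 or WT-Saline replicate 3, and the Usp count to 3 without WT-LPS replicate 2 or 3 or WT-Saline replicate 2 or 3. In KO-labelled libraries no Rnf gene was called without KO-LPS replicate 2 or 3 or KO-Saline replicate 2 or 3, and no Usp gene without KO-LPS replicate 2 or 3; 1 Usp gene was called without any one KO-Saline library. With no trend, 2 Trim and 1 Rnf genes were called in WT, and 0 Rnf and 0 Usp genes in KO-labelled libraries. With only the groups of the comparison in the fit, 0 Rnf and 1 Usp genes were called there. Over members without exon overlap on the other strand, 2 Usp genes were called in WT, and 0 Rnf and 0 Usp genes in KO-labelled libraries. Over all genes, 1095 were called in WT, 734 to 1427 with each library left out in turn and 363 with no trend; in KO-labelled libraries 314 were, 32 to 1076 with each left out, 16 with no trend and 82 with only the groups of the comparison. The cause of these shifts was not tested, other than that fewer libraries or members enter some of them.

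Of the named values, 8 changed sign under some alternative, none of them called there or as reported, and 2 did so by more than their standard error: Rnf167 in WT was 0.29 without WT-LPS replicate 1, and Trim25 in KO-labelled libraries had leave-one-out values of −0.28 (KO-LPS replicate 1 left out) to 0.21. The other 6, near 0, were Trim25 and Trim30d in WT and Trim30d, Rnf216, Usp15 and Usp21 in KO-labelled libraries. The replicate block gave 4 Trim, 6 Rnf and 4 Usp calls in WT, and 0, 1 and 2 in KO-labelled libraries. Weights from voom, median-of-ratios scaling and scaling by total reads were added after seeing the data. No alternative called a member between genotypes or in the interaction. The planned edgeR and DESeq2 fits were not run; the voom weights on recovered reads took their place. With a median of 17.2 reads per member, small changes in low genes were not detectable at this depth.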
